A study of Homo sapiens with 12 samples.

Results

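The human cell line SaOS-2 was derived from an osteosarcoma, a tumor of bone, and keeps many features of bone-forming osteoblasts. The comparison described here was that of parental, untransfected SaOS-2 cells at day 14 of culture in osteogenic differentiation medium with parental SaOS-2 cells at day 0, before that culture. It rested on the 2 arrays titled SaOS-2 day 14 and the 2 titled SaOS-2 day 0, 4 of the 12 arrays of the study, and on every probe set whose signal was above 100 on at least 4 of the 12 arrays. This floor kept 18677 of 54613 probe sets and 9731 of the 19775 genes that had a probe set of their own. Just inside it were 520 probe sets above 100 on exactly 4 arrays, and just outside it 489 on exactly 3.

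Total RNA was measured on Affymetrix HG-U133 Plus 2.0 arrays, 1 per sample. The other 8 arrays held parental SaOS-2 at day 7 (2 arrays) and the clones Sa/CD99wt22 and Sa/CD99wt36, which were stably transfected with the surface glycoprotein CD99 and selected with neomycin, at days 0, 7 and 14 (1 array per clone and day). The osteogenic medium held less serum than the routine medium, and ascorbic acid and beta-glycerophosphate were added to it. No array analysed here held SaOS-2 cells kept for 14 days in routine medium, so the added compounds, the lower serum and the time in culture cannot be told apart. Whether the pair of SaOS-2 arrays of each day represents independent cultures is not stated in the labels. The p-values therefore describe the spread between these arrays only, which may be technical.

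As background, osteoblasts are directed by the transcription factors RUNX2 and SP7 and secrete a matrix of type I collagen, which the glycoprotein IBSP and the phosphatase ALPL help to mineralize. Ascorbic acid is a cofactor of the enzymes that hydroxylate collagen and of those that mark the hypoxia factor HIF1A for destruction, and beta-glycerophosphate is a source of phosphate for mineral. Bone morphogenetic proteins (BMPs) act through SMAD proteins, whose direct targets include the ID genes, inhibitors of differentiation factors.

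Values below are log2 RMA signals, the normalized brightness of a probe set, and a difference of 1 between them is a 2-fold change. A gene was said to have risen or fallen where its adjusted p was at most 0.05 (limma, Benjamini-Hochberg over all probe sets) and its change at least 1.5-fold, which is 0.585 on the log2 scale. The 2 arrays of a day were alike: they correlated with r = 0.9975 at day 14 and 0.9966 at day 0, and their differences had an SD of 0.11 at day 14 and 0.13 at day 0. The log2 signal of the 3' end of the actin control over its 5' end, a measure of RNA integrity, was 0.20 and 0.24 on the day 14 arrays and 0.11 and 0.22 on the day 0 arrays and the ranges of the days overlapped. All 8 osteoblast lineage markers with a probe set of their own (among them RUNX2, SP7, COL1A1, ALPL and SPARC) were above the floor on both days, while 0 of 7 haematopoietic and 0 of 7 endothelial markers were. Of 9 chondrocyte markers 2 were above it, the link protein HAPLN1, which rose by 0.71, and SOX9, which had a change of -0.54, while the cartilage collagen COL2A1 was below it. Of 8 epithelial markers 2 were above the floor on both days. They were EPCAM, with means of 8.27 at day 14 and 8.44 at day 0, and KRT18, with 8.53 and 8.70.

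Over 14 days, 595 of 9731 genes rose (6.11%) and 567 fell (5.83%), and the remaining 8569 did not pass. These shares of all genes are the background for the counts of every list below. A short list with few or no calls can lie near them. In RNA of a whole culture, fewer cells of a type and less RNA per cell cannot be told apart. Most changes were small. The median change of all genes was 0.00 and the median size of a change 0.21, with a median SE of 0.06. Of the genes that rose, 197 did so at least 2-fold and 28 at least 4-fold, and of those that fell 142 and 22. On all 1162 called genes the arrays of the 2 days did not overlap. The 1.5-fold threshold nearly ensures this where the arrays of a day differ with an SD of 0.11 or 0.13, so it is no separate support. Counted as probe sets, 932 rose and 1324 fell, so falls made up 58.7% of the calls, but 48.5% when each array was centred on its median. For genes that centring gave 701 rises and 452 falls. There were 190 genes above the floor on both day 14 arrays and neither day 0 array, and 140 with the reverse pattern.

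The largest rise was that of COL3A1, the chain of type III collagen, a fibrillar collagen of soft and healing tissue. Its signal was 10.51 and 10.51 on the day 14 arrays, against 4.93 and 5.28 on the day 0 arrays (log2 change 5.41, SE 0.10, adjusted p = 7.41e-08), below the floor of 6.64 at day 0, and its other probe sets changed by 5.44 and 5.24. KANK4, an adaptor of the cortical cytoskeleton, was at 9.96 and 9.78 at day 14, against 4.92 and 4.71 at day 0 (5.06, SE 0.09). PI15, a secreted protease inhibitor (4.51, SE 0.07), and CCN5, a matricellular protein also called WISP2 (4.01, SE 0.06), followed. Each of these 4 genes was above the floor on both day 14 arrays and below it on both day 0 arrays.

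Several other leading genes encode secreted or surface proteins. LBP, which binds bacterial lipopolysaccharide, was at 8.56 and 8.57 at day 14, against 4.99 and 4.96 at day 0 (3.59, SE 0.05). FGFBP2, a secreted binding protein, was at 12.90 and 12.93 at day 14, against 9.36 and 9.31 at day 0, a rise of 3.58 in a gene that was already well above the floor. Rises of 2.73 to 3.56 were seen in PLXDC1, a receptor-like protein known from tumor endothelium (3.56), the scavenger receptor COLEC12 (3.23), the gap junction protein GJB2 (3.10), the cold-sensing channel TRPM8 (3.10), the interleukin 1 receptor IL1R1 (2.77), the endothelial lipase LIPG (2.77), the cytochrome CYP4X1 (2.73) and GPNMB, a glycoprotein of osteoblasts and lysosomes (2.73). The remaining 6 of the leading 20 were the zinc transporter SLC39A12 (2.67), IBSP (2.66), the ubiquitin ligase RNF144A (2.45), PROM1 (2.44), the small GTPase RASL12 (2.34) and BABAM2 (2.32). GPNMB changed by 1.72 on its other probe set.

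The largest fall was that of MYH3, the embryonic myosin heavy chain of skeletal muscle, which was at 3.84 and 3.61 at day 14, against 8.05 and 8.12 at day 0 (-4.35, SE 0.09, adjusted p = 1.02e-07). ID1 (-4.15), the BMP antagonist NOG (-3.58), ID4 (-3.50) and ID3 (-3.02) were among the 6 genes that came next, together with DKK1, a secreted Wnt inhibitor (-3.99), and COL18A1, the basement membrane collagen that gives rise to endostatin (-3.02). DKK1 was at 5.12 and 5.06 at day 14, against 8.94 and 9.23 at day 0. BNIP3, a hypoxia-induced mitophagy receptor (-2.99), the phospholipase PLCB4 (-2.57), the transcription factor ATOH8 (-2.39), the calponin CNN1 (-2.28), the receptor kinase KIT (-2.13) and the growth factor TGFB2 (-2.06) also belonged to the 20 largest falls. So did LINC02901, a long non-coding RNA (-2.58), CCDC150 (-2.14) and the zinc finger factor SALL3 (-2.08). ID1, ID3, BNIP3, CNN1, KIT and TGFB2 were still above the floor at day 14, while MYH3, DKK1, NOG and ID4 were below it.

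**Figure D1:**
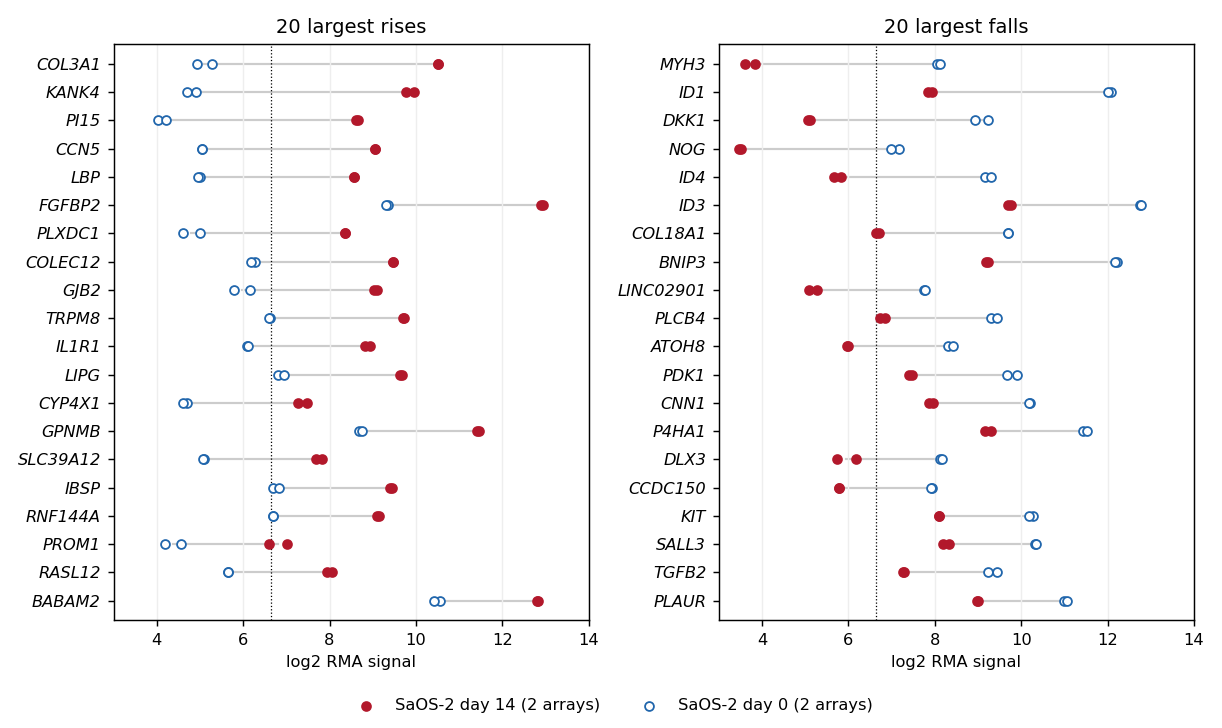
Log2 RMA signal (horizontal axis) of the 20 genes with the largest rise (left) and the 20 with the largest fall (right) in SaOS-2, ordered by change from top to bottom. Filled points are the 2 day 14 arrays, open points the 2 day 0 arrays, the grey line joins their means and the dotted line is the floor of 6.64. The 2 arrays of a day lie close together beside changes of 2.03 to 5.41, and COL3A1 and MYH3 show the largest shifts.

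Among genes of bone matrix and mineralization, 5 of 13 tested rose and 0 fell (median change 0.49, against 0.00 over all genes). IBSP, the bone sialoprotein that nucleates mineral, was at 9.41 and 9.44 at day 14, against 6.70 and 6.84 at day 0 (2.66, SE 0.07, adjusted p = 2.84e-07). SMPD3, a sphingomyelinase needed for mineralization of the skeleton, was at 7.15 and 7.21 at day 14, against 5.29 and 5.55 at day 0 (1.76, SE 0.09). PTH1R, the receptor of parathyroid hormone (0.86), ENPP1, which makes the mineralization inhibitor pyrophosphate (0.75), and VDR, the vitamin D receptor (0.66, but 0.51 as the mean of its probe sets), rose less. ALPL had a change of 0.49 (SE 0.06, adjusted p = 0.000584), under the fold threshold, with 12.13 and 11.99 at day 14, against 11.56 and 11.58 at day 0. SPARC, an abundant bone glycoprotein, stood at 12.05 on both day 14 arrays, against 12 and 12.04 at day 0 (0.03, SE 0.06). In the fit of all 12 arrays, whose spread includes the difference between clones, IBSP did not pass (adjusted p = 0.219).

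Late bone genes stayed below the floor on all arrays. SPP1 (osteopontin) was at 4.16 and 4.41 at day 14, against 3.92 and 4.02 at day 0, and DMP1, a matrix protein of osteocytes, was at 3.25 and 3.23 at day 14, against 3.10 and 3.45 at day 0. PHEX, an endopeptidase of osteocytes, was at 4.58 and 4.47 at day 14, against 4.39 and 4.25 at day 0. MEPE, another osteocyte protein, was at 6.16 and 6.26 at day 14, against 5.37 and 5.46 at day 0, also under 6.64. These genes were not tested.

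Of 12 transcription factors of osteoblasts tested, 0 rose (against 6.11% of all genes) and 2 fell (16.7%, against 5.83%), with a median of -0.11. A list this short cannot tell 0 rises from the share of all genes. The falls were those of the homeobox factors DLX3, at 5.73 and 6.17 at day 14, against 8.13 and 8.16 at day 0 (-2.19, SE 0.13), and MSX2, at 6.32 and 6.48 at day 14, against 7.73 and 7.90 at day 0 (-1.42, SE 0.08). RUNX2 was at 11.81 and 11.88 at day 14, against 11.69 and 11.72 at day 0 (0.14, SE 0.06, adjusted p = 0.0676), and its 4 other probe sets had changes of -0.24 to -0.05. SP7, also called osterix, was at 8.26 and 8.08 at day 14, against 8.73 and 8.67 at day 0 (-0.53, SE 0.07), short of the fold threshold, but passed it without SaOS-2 day 14 replicate 1 (-0.62).

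Collagen genes changed in single members rather than as a group. Of 12 chains tested, COL3A1 and COL1A2 rose, COL18A1 fell and 9 did not pass (median -0.07). COL8A1 was above the floor on only 2 of the 12 arrays and was not tested. It was at 4.97 and 4.99 at day 14, against 7.51 and 7.54 at day 0. COL6A3, below the floor on every array and not tested, was at 6.55 and 6.51 at day 14, against 4.36 on both day 0 arrays. COL1A2, which pairs with COL1A1 in type I collagen, was at 11.55 and 11.51 at day 14, against 10.45 and 10.37 at day 0 (1.12, SE 0.06), though not past the threshold in the fit of all 12 arrays (adjusted p = 0.477). COL1A1 was at 12.97 and 13.17 at day 14, against 12.86 and 13.16 at day 0, so the days overlapped (0.07, SE 0.11). Leaving out SaOS-2 day 0 replicate 1 gave -0.08, and leaving out SaOS-2 day 14 replicate 2 gave -0.03.

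Of 20 collagen-processing enzymes and chaperones tested, 3 rose and 3 fell (median 0.10). PCOLCE, which enhances cleavage of procollagen, was at 13.19 and 13.16 at day 14, against 11.96 and 11.77 at day 0 (1.31, SE 0.07). The procollagen proteinase BMP1 (0.80, adjusted p = 0.104 in the fit of all 12 arrays) and the crosslinking oxidase LOXL1 (0.62, but 0.55 without SaOS-2 day 0 replicate 2) rose too. The prolyl hydroxylase subunit P4HA1 (-2.24, SE 0.07), the oxidase LOXL2 (-1.40, SE 0.06) and the lysyl hydroxylase PLOD2 (-0.68, but -0.56 without SaOS-2 day 0 replicate 2) fell. P4HA1 also belonged to the list of hypoxia genes.

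Genes of matrix turnover changed both ways. Of 13 proteases and inhibitors tested, 4 rose and 3 fell (median 0.44). PLAU, the urokinase that activates plasminogen, was at 10.32 and 10.28 at day 14, against 8.03 and 8.06 at day 0 (2.26, SE 0.06), while its receptor PLAUR was at 8.97 and 8.99 at day 14, against 10.98 and 11.05 at day 0 (-2.03, SE 0.06). The collagenase MMP14 (1.12), the gelatinase MMP2 (1.01), which MMP14 activates, and the protease inhibitor SERPINE2 (1.06) rose. Of 22 proteoglycans and matricellular proteins, 5 rose and 3 fell, with the basement membrane linker NID2 (1.78) and the proteoglycan VCAN (1.57) highest and HSPG2, the perlecan of basement membranes (-1.32), lowest. The laminin chain LAMA4 was at 8.85 and 8.92 at day 14, against 6.55 and 6.72 at day 0 (2.25, SE 0.07). The laminin-binding integrin ITGA7 rose by 1.0, though not in the fit of all 12 arrays (adjusted p = 0.417), and ITGA6 fell by 1.58 on the log2 scale.

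Of 18 genes of BMP signalling tested, 9 fell, 2 rose and 7 did not pass (median -0.59). The 4 ID genes all fell. ID1 was at 7.83 and 7.93 at day 14, against 12.07 and 12 at day 0 (-4.15, SE 0.06, adjusted p = 4e-08), a 17.8-fold difference. ID4 was at 5.66 and 5.83 at day 14, against 9.17 and 9.31 at day 0 (-3.50, SE 0.08). ID3 was at 9.77 and 9.70 at day 14, against 12.74 and 12.78 at day 0 (-3.02, SE 0.06), and ID2 at 8.13 and 8.23 at day 14, against 10.08 and 10.17 at day 0 (-1.94, SE 0.07).

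Inhibitors of the pathway fell in part. NOG, which traps BMPs outside the cell, was at 3.47 and 3.51 at day 14, against 7.16 and 6.98 at day 0 (-3.58, SE 0.08), so it dropped below the floor. The decoy receptor BAMBI (-1.59) and the inhibitory SMAD6 (-1.57) fell, as did SMAD9 (-0.83) and the receptor BMPR2 (-0.65, but -0.52 as the mean of its probe sets). The BMP antagonist GREM1 did not pass, with 11.45 and 11.42 at day 14, against 11.55 and 11.59 at day 0 (-0.14, adjusted p = 0.0594), nor did the ubiquitin ligases SMURF1 (-0.10) and SMURF2 (-0.53), which mark SMAD proteins for degradation. The type I receptor ACVR1 (0.77) and SMAD1, the transducer itself (0.63), rose. The ligands had values that overlapped between the days: BMP4 was at 9.94 on both day 14 arrays, against 10.02 and 9.85 at day 0, BMP2 at 7.19 and 7.30 at day 14, against 7.16 and 7.35 at day 0, and BMP7 at 6.70 and 6.76 at day 14, against 6.70 and 6.74 at day 0. The changes of these 3 ligands were between -0.01 and 0.01.

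Of 20 TGF-beta genes tested, 6 fell and 2 rose (median -0.24). The ligand TGFB2 was at 7.26 and 7.28 at day 14, against 9.23 and 9.43 at day 0 (-2.06, SE 0.07), and the inhibitory SMAD7 at 6.68 and 6.34 at day 14, against 7.82 and 7.87 at day 0 (-1.34, SE 0.10). FSTL3, which binds activin (-1.31), INHBA, an activin subunit (-0.97), and the receptors TGFBR1 (-0.65) and TGFBR2 (-0.60) fell. PMEPA1, a target that restrains the pathway (1.0), and LTBP1, which anchors latent TGF-beta (0.68), rose.

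Wnt genes moved both ways, with 5 of 16 tested higher and 3 lower (median -0.12). The inhibitor DKK1 fell most (-3.99, SE 0.10), and DKK3 (-0.63) and the ligand WNT10B (-0.61) fell as well. Among inhibitors that the floor left untested, the values of SFRP2 and WIF1 differed between the days in opposite directions. SFRP2 was at 7.02 and 6.95 at day 14, against 4.29 on both day 0 arrays. WIF1, below the floor on every array, was at 4.13 and 3.71 at day 14, against 5.09 and 5.11 at day 0. WNT11, a ligand (1.38), LEF1, a transcription factor that binds beta-catenin (1.34), and AXIN2, a feedback target (0.88), rose. So did CCN5 and CCN4, which are known as Wnt-induced proteins: CCN5 was at 9.05 and 9.06 at day 14, against 5.05 and 5.04 at day 0, and CCN4 at 11.25 and 11.31 at day 14, against 9.96 and 10.0 at day 0 (1.3, SE 0.06). CCN4 did not pass in the fit of all 12 arrays (adjusted p = 0.105). The Notch ligand JAG1 was at 8.51 and 8.63 at day 14, against 9.95 and 10.11 at day 0 (-1.46, SE 0.07), among 10 Notch genes of which 2 fell and 1 rose.

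Glycolysis and hypoxia genes had the largest share of falls of the lists: 20 of 33 tested fell (60.6%, against 5.83% of all genes) and 1 rose (median -0.73). BNIP3 was at 9.22 and 9.19 at day 14, against 12.21 and 12.18 at day 0 (-2.99, SE 0.06, adjusted p = 7.41e-08). PDK1, the kinase that keeps pyruvate out of mitochondria, was at 7.48 and 7.41 at day 14, against 9.66 and 9.91 at day 0 (-2.33, SE 0.09). P4HA1 was at 9.17 and 9.31 at day 14, against 11.44 and 11.53 at day 0. These genes are textbook targets of HIF1A.

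The oxygen-sensing hydroxylases, which are themselves induced by hypoxia, fell with them. EGLN3 was at 6.26 and 6.31 at day 14, against 8.32 and 8.26 at day 0 (-2.01, SE 0.06), and EGLN1 at 7.77 and 7.72 at day 14, against 9.35 and 9.49 at day 0 (-1.68, SE 0.07). Of the enzymes, the enolase ENO2 (-1.88) and the hexokinase HK2 (-1.22) fell, and so did ANKRD37 (-1.30) and the mitophagy receptor BNIP3L (-1.20), although BNIP3L did not pass in the fit of all 12 arrays (adjusted p = 0.0544). The other probe set of HK2 had a change of 0.59, and the mean of both gave -0.32. CA12, a carbonic anhydrase, rose by 0.67 but did not pass in the fit of all 12 arrays (adjusted p = 0.216). GAPDH (-0.20) and the angiogenic factor VEGFA (-0.54, SE 0.06) did not pass, VEGFA with 10.12 and 10.19 at day 14, against 10.64 and 10.75 at day 0. Without SaOS-2 day 0 replicate 1 VEGFA had a change of -0.60 and passed.

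Promoters of 3 of these genes are shown because they hold the core letters of the hypoxia response element, to which HIF1A binds, near the start site. Each is 300 bases of RefSeq (GRCh38.p14), 250 before the start and 50 after it, 5' to 3' on the strand of the gene, with ACGTG or its complement CACGT in capitals: BNIP3 at chr10:131981874-131982173 (minus strand), ENO2 at chr12:6914330-6914629 (plus strand) and P4HA1 at chr10:73096817-73097116 (minus strand).
BNIP3: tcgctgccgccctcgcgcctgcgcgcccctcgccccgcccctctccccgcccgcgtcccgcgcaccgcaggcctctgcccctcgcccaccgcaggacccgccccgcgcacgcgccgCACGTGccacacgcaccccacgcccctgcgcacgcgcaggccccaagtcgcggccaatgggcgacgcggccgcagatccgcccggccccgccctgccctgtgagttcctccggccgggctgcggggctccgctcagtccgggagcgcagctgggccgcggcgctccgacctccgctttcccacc
ENO2: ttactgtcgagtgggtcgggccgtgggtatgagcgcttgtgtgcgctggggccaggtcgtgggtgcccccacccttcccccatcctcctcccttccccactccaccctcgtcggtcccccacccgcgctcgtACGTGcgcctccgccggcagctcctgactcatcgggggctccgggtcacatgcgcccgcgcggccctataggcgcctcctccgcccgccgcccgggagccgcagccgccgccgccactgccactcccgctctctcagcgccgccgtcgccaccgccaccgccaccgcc
P4HA1: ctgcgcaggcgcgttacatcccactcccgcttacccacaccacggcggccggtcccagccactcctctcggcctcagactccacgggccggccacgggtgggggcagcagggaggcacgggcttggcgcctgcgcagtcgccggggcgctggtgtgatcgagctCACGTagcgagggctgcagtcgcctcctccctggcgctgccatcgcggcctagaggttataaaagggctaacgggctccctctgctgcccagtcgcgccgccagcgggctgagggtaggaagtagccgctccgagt
BNIP3 held 2 matches, 1 base apart, which are the same letters read on both strands. The letters ACGTG, on either strand, were in the promoters of 11 of the 19 fallen members of the list with a promoter in the table (57.9%), of 2 of the 9 that did not pass (22.2%) and of 21.4% of all 35114 promoters. Among all fallen genes with a promoter the share was 31.0% of 480, among those that rose 23.9% of 468 and among all tested genes 27.9% of 8156. PDK1 and EGLN3 fell without these letters in the window.

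Mitotic genes were lower by small amounts. All 32 tested members of the spindle and kinetochore list had a change below 0 (median -0.50), 12 of them past the thresholds and 0 in the other direction. NUF2, of the kinetochore, was at 7.69 and 7.76 at day 14, against 8.72 and 8.87 at day 0 (-1.07, SE 0.07). CCNA2, the cyclin of S phase and mitotic entry, was at 8.85 and 8.76 at day 14, against 9.63 and 9.95 at day 0 (-0.99, SE 0.10). The spindle motors KIF11 (-0.88) and KIF23 (-0.82), the checkpoint kinase BUB1 (-0.86), the topoisomerase TOP2A (-0.76), CENPF (-0.76) and the midzone protein PRC1 (-0.67) fell as well. The proliferation marker MKI67 was at 8.66 and 8.62 at day 14, against 8.96 and 8.99 at day 0 (-0.33, SE 0.06), under the fold threshold.

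The promoters of KIF11 at chr10:92592880-92593179 (plus strand) and PRC1 at chr15:90994486-90994785 (minus strand) are shown because each holds a CCAAT box, the site of the activator NF-Y in many mitotic promoters, and a cell cycle homology region (CHR), through which many mitotic genes are known to be repressed outside the cycle. They are from RefSeq (GRCh38.p14), 300 bases as above, and the capitals mark CCAAT or ATTGG and TTTGAA or TTCAAA.
KIF11: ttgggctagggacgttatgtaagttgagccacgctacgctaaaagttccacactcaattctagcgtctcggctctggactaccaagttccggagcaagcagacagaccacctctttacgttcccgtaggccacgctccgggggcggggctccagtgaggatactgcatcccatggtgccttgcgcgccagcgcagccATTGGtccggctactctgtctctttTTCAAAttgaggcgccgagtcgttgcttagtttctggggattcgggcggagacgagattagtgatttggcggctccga
PRC1: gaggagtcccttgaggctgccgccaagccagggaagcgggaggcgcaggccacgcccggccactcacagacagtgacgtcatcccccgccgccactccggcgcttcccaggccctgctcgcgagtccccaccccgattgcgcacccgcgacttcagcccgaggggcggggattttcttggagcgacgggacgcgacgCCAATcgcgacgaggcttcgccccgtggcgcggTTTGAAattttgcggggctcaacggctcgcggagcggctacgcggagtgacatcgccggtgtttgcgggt
TTTGAA, on either strand, was in 8 of 10 promoters of fallen mitotic genes (80%), in 10 of 16 of those that did not pass (62.5%) and in 15.2% of all promoters. CCAAT was in 8 of the 10 (80%), in 13 of the 16 (81.2%) and in 34.6% of all promoters. Over all fallen genes TTTGAA was in 20.2% of promoters, against 8.76% of those that rose and 9.61% of tested genes, while the median GC content of promoters was 66.7% in both directions. CCAAT was in 37.5% of promoters of fallen genes, 32.5% of risen genes and 37.6% of all tested genes.

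Of 38 DNA replication genes tested, 31 did not pass, 3 rose (7.89%, against 6.11% of all genes) and 4 fell (10.5%, against 5.83%), and the median change was -0.06. The helicase subunit MCM6 (0.62), the polymerase subunit POLE2 (0.62, but 0.57 without SaOS-2 day 14 replicate 1) and GINS4 (0.75) rose, although POLE2 and GINS4 did not pass in the fit of all 12 arrays (adjusted p = 0.171 and 0.188). MCM10 (-0.80), E2F8 (-0.77), ORC6 (-0.68) and CDC6 (-0.65) fell. The letters of an E2F site (TTTGGCGC, TTTCGCGC or TTTCCCGC on either strand) were in 15 of 28 promoters of members that did not pass (53.6%), in 1 of 3 that fell, in 2 of 2 that rose and in 2.74% of all promoters. Among all tested genes the share was 4.89%.

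Inhibitors of cyclin-dependent kinases changed one by one. Of 18 genes of this and the quiescence list tested, 5 rose and 3 fell. CDKN1C, the inhibitor p57, was at 8.43 and 8.46 at day 14, against 6.79 and 6.69 at day 0 (1.71, SE 0.06). CDKN1A, the inhibitor p21, was at 9.97 and 9.93 at day 14, against 9.03 on both day 0 arrays (0.92, SE 0.05), but did not pass in the fit of all 12 arrays (adjusted p = 0.144). The factor KLF4 (1.28), the growth arrest gene GAS1 (0.80) and the antiproliferative gene BTG1 (0.63) rose, and CDKN2B, the inhibitor p15 (-0.93), and GAS6, a ligand of AXL (-0.70), fell. GAS1 and GAS6 did not pass in the fit of all 12 arrays (adjusted p = 0.0731 and 0.353). CDKN1B, the inhibitor p27, had a change of 0.18 (SE 0.09, adjusted p = 0.124), and CCND1, cyclin D1, was below the floor, at 4.26 and 4.23 at day 14, against 4.39 and 4.75 at day 0.

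Contractile genes and targets of YAP and SRF, factors that respond to actin tension, also fell, 6 of 19 tested with 0 rising (median -0.49). CNN1 was at 7.96 and 7.87 at day 14, against 10.21 and 10.18 at day 0 (-2.28, SE 0.06). TAGLN, an actin-binding protein of smooth muscle, was at 10.89 and 10.84 at day 14, against 12.42 and 12.27 at day 0 (-1.48, SE 0.08), with changes of -1.60 and -0.13 on its other probe sets. CRIM1 (-1.16), the receptor kinase AXL (-1.10), AJUBA (-0.90) and the tropomyosin TPM2 (-0.63) fell. TPM2 had a change of -0.57 when arrays were centred and an adjusted p of 0.781 in the fit of all 12 arrays. Smooth muscle actin, ACTA2, had a change of -0.49 (SE 0.06), under the fold threshold.

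**Figure D2:**
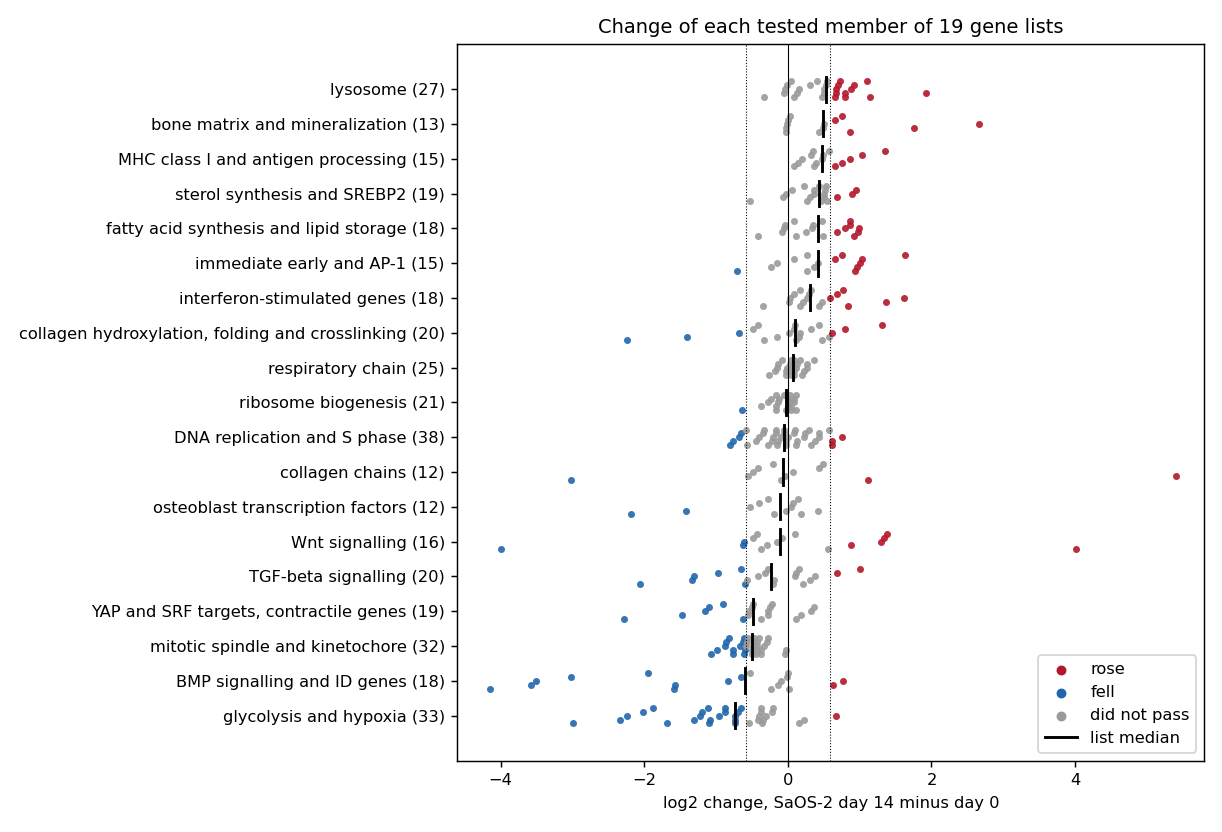
Log2 change in SaOS-2, day 14 minus day 0 (horizontal axis), of every tested member of 19 gene lists, with the number tested in brackets. Each point is a gene, colored by whether it rose, fell or did not pass, the black bar is the list median and the dotted lines mark 1.5-fold. The medians run from 0.53 for the lysosome list to -0.73 for glycolysis and hypoxia, and the respiratory chain has no colored point.

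Lysosomal genes rose in the largest number: 12 of 27 tested rose and 0 fell (median 0.53, against 6.11% of all genes rising). The cysteine protease CTSS was at 8.61 and 8.47 at day 14, against 6.66 and 6.57 at day 0 (1.92, SE 0.08, adjusted p = 2.39e-06). CTSH was at 8.35 and 8.45 at day 14, against 7.31 and 7.19 at day 0 (1.15, SE 0.07), and TPP1, a peptidase, at 10.11 and 10.07 at day 14, against 9.01 and 8.97 at day 0 (1.10, SE 0.06). The lipase LIPA (0.92), CTSO (0.88), the cholesterol carrier NPC2 (0.79), CTSB (0.79) and the membrane protein LAMP2 (0.73) rose too. CTSB and LAMP2 had probe sets with changes of -0.02 and -0.06 beside those that rose, so that the mean of their probe sets was 0.44 for each, and CTSB did not pass in the fit of all 12 arrays (adjusted p = 0.157).

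Several lipid genes rose as well. Of 18 genes of fatty acid synthesis and storage, 7 rose and 0 fell (median 0.42). They were the acyl-CoA synthetase ACSL1 (0.99), CPT1A, which carries fatty acids into mitochondria (0.92), the desaturase FADS2 (0.86), the regulator SREBF1 (0.79) and ELOVL6 (0.68). Also among the 7 were the transcription factors CEBPB (0.98) and CEBPD (0.87). The synthesis enzymes FASN (0.34), ACACA (0.35), ACLY (0.11) and SCD (0.48) did not pass, nor did DGAT1 (0.25) and DGAT2 (0.09), of lipid storage. Of 19 sterol synthesis genes, 3 rose, DHCR7 (0.95), the sterol sensor INSIG1 (0.90) and MSMO1 (0.68), and 16 did not pass (median 0.44). HMGCS1, of the first steps of sterol synthesis, was at 8.84 and 8.92 at day 14, against 8.46 and 8.43 at day 0 (0.44, SE 0.06), with 0.61 as the mean of its probe sets. The summed signal of 8 adipocyte markers was 10.56 to 10.63 at day 14 and 9.53 to 9.61 at day 0. CFD, also a complement factor, made up most of that sum and of its increase, with means of 10.22 at day 14 and 8.72 at day 0. It rose (1.5), and PPARG (-0.08) was the only other marker above the floor. ADIPOQ, FABP4, PLIN1, CIDEC, LEP and LPL were below it on all 4 arrays. The part of adipocytes in these values was not tested.

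Genes of antigen processing rose in part, 5 of 15 tested with 0 falling, and all 15 had a change above 0 (median 0.48). The immunoproteasome subunits PSMB9 (1.35), PSMB8 (1.03) and PSMB10 (0.86) rose: PSMB9 was at 10.71 and 10.65 at day 14, against 9.36 and 9.30 at day 0. TAPBP, which loads peptides on class I molecules, rose by 0.75, though not in the fit of all 12 arrays (adjusted p = 0.113), and by 0.56 as the mean of its probe sets. Of 18 interferon-stimulated genes, 6 rose and 0 fell (median 0.31), among them IFITM1, at 10.99 and 10.98 at day 14, against 9.42 and 9.31 at day 0 (1.62, SE 0.07), IFI35 (1.37), PARP9 (0.84) and IRF9, a subunit of the interferon-activated factor (0.77). SAMD9 (0.59), another of the 6, was below the floor on all 4 arrays. The other 12 did not pass, among them ISG15 (0.03), IFIT3 (0.02), IFI44 (0.17) and IFIT1 (-0.35). The complement protease C1R rose by 0.98. All 7 haematopoietic markers measured, PTPRC and CD14 among them, were below the floor on the 4 arrays.

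Genes of the immediate early response, many of them transcription factors, were higher in part, 7 of 15 tested with 1 lower (median 0.42). EGR1 was at 10.01 and 9.97 at day 14, against 8.32 and 8.40 at day 0 (1.63, SE 0.09). KLF10 (1.03), IER3 (1.01), ATF3 (0.96), JUNB (0.94) and JUND (0.76) rose and FOSL1, another AP-1 subunit, fell (-0.71). FOSL1 did not pass in the fit of all 12 arrays (adjusted p = 0.0716). Of 11 cytokine and NF-kB genes, 5 rose, including the feedback inhibitor TNFAIP3 (0.69) and the cytokines IL11 (0.67) and LIF (0.63, but 0.58 without SaOS-2 day 14 replicate 1). IL11 and LIF did not pass in the fit of all 12 arrays (adjusted p = 0.375 and 0.115), and the mean of the probe sets of IL11 was 0.53.

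Stress and metabolic lists were mixed or flat. Of 28 redox genes, 5 rose and 2 fell: the peroxidase GPX7 was at 7.68 and 7.47 at day 14, against 5.55 and 5.69 at day 0 (1.95, SE 0.09), MGST1 (1.27) and the extracellular superoxide dismutase SOD3 (0.98) rose, and the NRF2 targets TXNRD1 (-0.77) and GCLM (-0.91) fell. Among 22 genes of the ATF4 response, 5 fell and 2 rose, with the lipoprotein receptor VLDLR (-1.86), the cystine transporter SLC7A11 (-1.31), STC2 (-1.24) and the serine synthesis enzyme PSAT1 (-0.77) lower. HSP90B1 (-0.91) was the only call of 21 chaperone genes of the endoplasmic reticulum, and its other probe set had a change of -0.20, which gave -0.55 as their mean. The letters CCACG of the ER stress element, on either strand, were in 15 of 19 promoters of those that did not pass (78.9%) and in 38.1% of all promoters. Among all tested genes the share was 50.7%. None of 25 respiratory chain genes was called (changes from -0.26 to 0.37), against 11.9% of all genes. Of 21 ribosome biogenesis genes 1 fell (4.76%, against 5.83% of all genes). Of 13 genes of the insulin-like growth factor (IGF) axis, 4 fell and 2 rose, among them IGFBP3 (-1.14), a binding protein that did not pass in the fit of all 12 arrays (adjusted p = 0.106), and the growth hormone receptor GHR (0.96). The zinc exporter SLC30A1 fell by 1.59 on the log2 scale, and the muscle atrophy ligase FBXO32 rose by 1.63. Of 18 apoptosis regulators 4 rose, the proapoptotic PMAIP1 (1.3) and BAX (0.74) among them, and 14 did not pass, such as the proapoptotic BOK (-0.57), with a list median of 0.08 and 9 members on each side of 0. BOK passed without SaOS-2 day 0 replicate 2 (-0.63) or SaOS-2 day 14 replicate 1 (-0.59). None of 8 replication-dependent histone genes was called, and of 17 FOXO target genes 4 rose and 1 fell.

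The day 7 arrays divided the 14 days into weeks. Against day 0, 1522 genes were called at day 7 (15.6%), and 1370 at day 14 against day 7 (14.1%). These comparisons share arrays with each other and with the 14 day comparison. Of the 595 genes that rose over 14 days, 370 had day 7 arrays between those of day 0 and day 14, 305 were already called by day 7 and 33 were called in both weeks. A further 97 were called in the second week alone and 192 in neither week. Of the 567 that fell, 252 had day 7 arrays in between, 268 were called by day 7, 10 in both weeks and 151 in the second week alone. In 358 genes that did not pass over 14 days a rise in the first week was followed by a fall in the second, and in 116 the order was the reverse.

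The gene groups differed in their course. COL3A1 rose in both weeks, with 4.93 and 5.28 at day 0, 7.99 and 7.99 at day 7 and 10.51 and 10.51 at day 14. IBSP and CCN5 also rose in both weeks, while COL1A2 was called in the second week alone, with 10.45 and 10.37 at day 0, 10.67 and 10.69 at day 7 and 11.55 and 11.51 at day 14. ID1 and ID3 fell in the first week and rose in the second: ID1 was at 12.07 and 12 at day 0, 7.30 and 7.22 at day 7 and 7.83 and 7.93 at day 14. BNIP3, PDK1, P4HA1, EGLN3, ENO2 and HK2 fell by day 7 and had no call after it. CNN1, TAGLN and TPM2 fell and then partly rose, TAGLN with 12.42 and 12.27 at day 0, 10.10 and 9.94 at day 7 and 10.89 and 10.84 at day 14. CENPF and NUF2 fell only in the second week, CENPF with 9.54 and 9.42 at day 0, 9.79 and 9.83 at day 7 and 8.78 and 8.66 at day 14, whereas PRC1 and BUB1 fell in the first. SP7 fell in the first week and rose in the second, with 8.73 and 8.67 at day 0, 7.51 and 7.5 at day 7 and 8.26 and 8.08 at day 14.

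**Figure D3:**
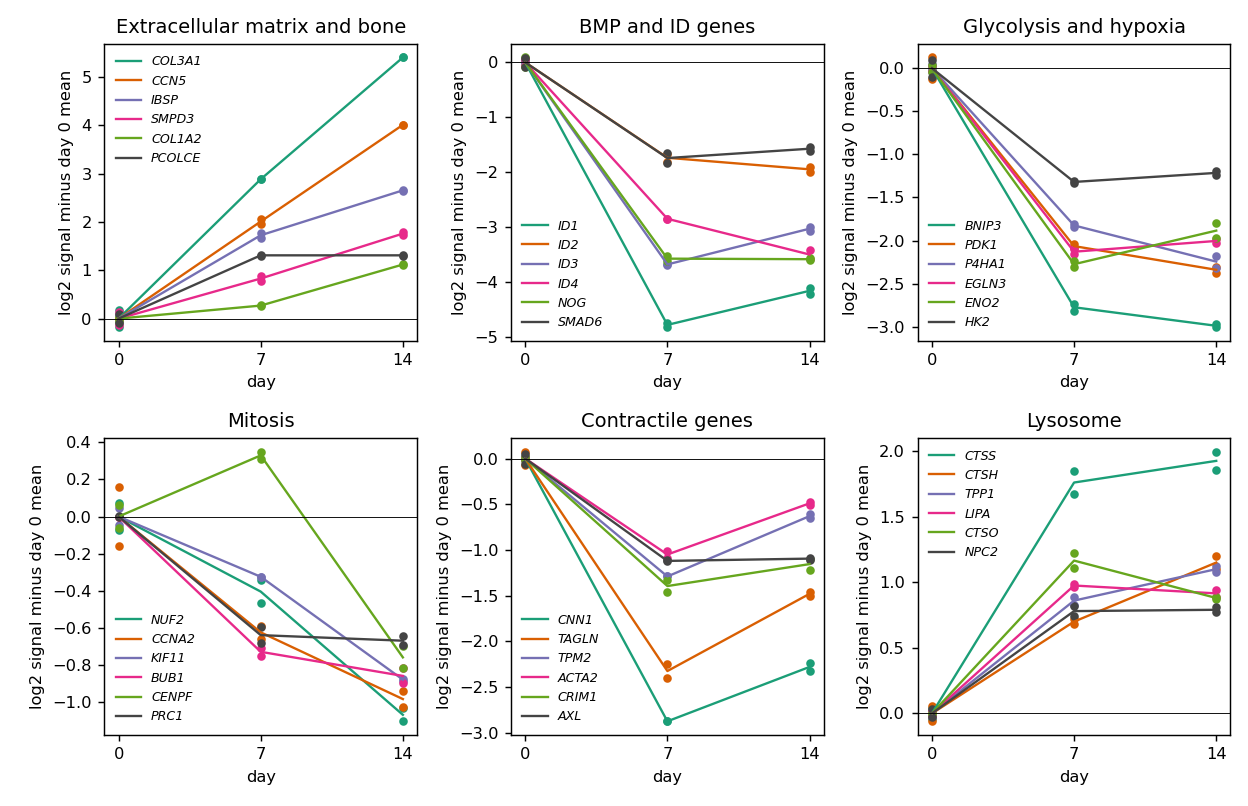
Log2 signal minus the mean of the day 0 arrays (vertical axis, scale set per panel) at days 0, 7 and 14 for 6 genes of each of 6 groups in SaOS-2. Points are single arrays, 2 per day, and lines join the means. COL3A1, CCN5 and IBSP climb through both weeks, while PCOLCE is flat after day 7. ID and hypoxia genes reach most of their fall by day 7. CNN1, TAGLN and TPM2 turn partly back up, AXL stays low, and CENPF falls only after day 7.

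The same 14 days in the CD99 transfectants, on arrays that the parental comparison did not use, gave similar changes. Across 9731 genes, the changes of SaOS-2 and of Sa/CD99 correlated with r = 0.90 (rho = 0.88), where genes are not independent replicates and all arrays were normalized together. Of the 595 genes that rose in SaOS-2, 547 had a positive change in both clones (91.9%) and 324 at least 1.5-fold in both. Of the 567 that fell, 558 had a negative change in both clones (98.4%) and 315 at least 1.5-fold in both. Among the 8569 genes that did not pass in SaOS-2, 38% had a positive change in both clones and 32.3% a negative one. COL3A1 changed by 3.67 in clone 22 and 5.57 in clone 36, ID1 by -4.35 and -4.55 and BNIP3 by -2.68 and -2.67. Clones differed for COL1A2, with 1.13 in clone 22 and -1.65 in clone 36, and for EGR1, with 1.74 and -0.93. CD99 itself changed by 0.36 in SaOS-2 (SE 0.05), with 12.66 and 12.65 at day 14, against 12.31 and 12.29 at day 0, and did not pass the fold threshold.

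A difference between the lines was tested as an interaction of line and day over all 12 arrays. By limma it was called for 0 genes, with 316 genes at an unadjusted p under 0.05, and for 2 genes (0.0206%) with the replicate and clone numbers as blocks. PLXDC1 was at 8.36 on both day 14 arrays of SaOS-2, against 5.00 and 4.60 at day 0, and changed by 3.56 in SaOS-2, by 1.41 in clone 22 and by 1.75 in clone 36 (interaction 1.98, blocked adjusted p = 0.0383, and 0.919 without the blocks). SEMA3C, a secreted guidance protein, changed by 0.73 in SaOS-2, by -1.0 in clone 22 and by -1.40 in clone 36 (interaction 1.94, blocked adjusted p = 0.0383, and 0.919 without the blocks). Its rise in SaOS-2 did not pass in the fit of all 12 arrays (adjusted p = 0.105). With the clone number alone as a block, CCN5 (interaction 1.67, adjusted p = 0.0165) and PDE4A, a phosphodiesterase (-1.02, adjusted p = 0.0409), were called beside these, 4 genes in all.

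**Figure D4:**
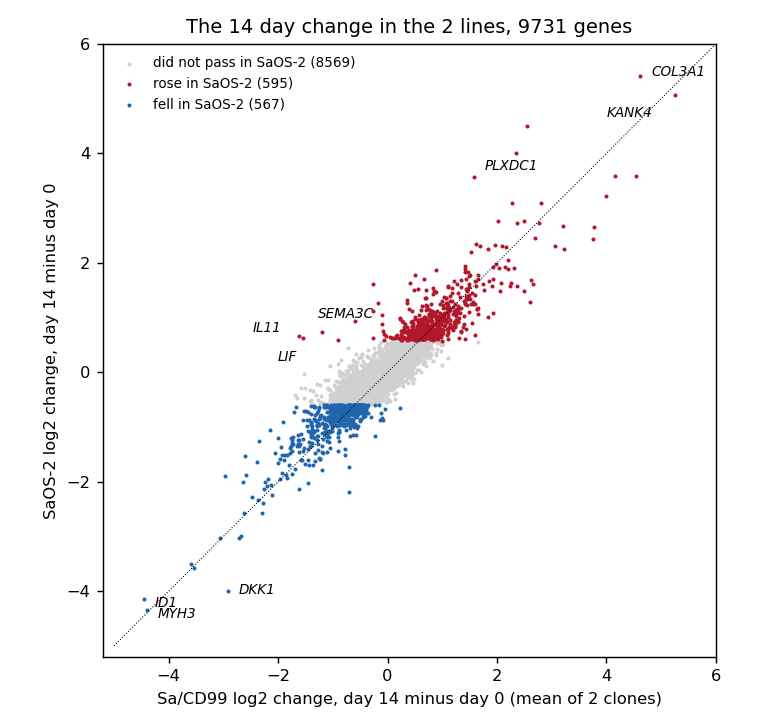
Log2 change from day 0 to day 14 in SaOS-2 (vertical axis) and in Sa/CD99, as the mean of 2 clones (horizontal axis), for each of 9731 genes. Colors mark genes that rose, fell or did not pass in SaOS-2 and the dotted line marks equal change. Most genes lie along the line, with PLXDC1 above it and IL11, LIF and SEMA3C to its left.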

How the data were processed

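Total RNA of 12 samples was hybridised to Affymetrix HG-U133 Plus 2.0 arrays. The authors normalized all arrays together with RMA and deposited log2 values for 54675 probe sets, 62 of them controls. The submitters' processing notes name affy without a version. All 12 columns were mapped to samples, and 0 per-sample columns were left unused. From these values, probe sets above signal 100 on at least 4 of 12 arrays were kept. The study's methods give this floor and also remove probe sets of low interquartile range, which was run here as an alternative only (601 genes rose and 596 fell). SaOS-2 days were compared with limma 3.58.1 in R 4.3.3, with 1 mean per day over 6 arrays (3 residual and 4.63 prior df), and p-values were adjusted over 18677 probe sets by Benjamini-Hochberg. With 2 arrays against 2, an exact permutation test cannot go below p = 0.333. The number of arrays limits the precision. Of the probe sets, 41091 had 1 gene in the platform annotation, 1801 several and 11721 none, and 41037 were matched to current symbols by gene ID. Each gene was represented by its probe set of highest mean. BGLAP had no probe set that the annotation used here gives to it alone, so no value is reported. Some items are not reported here.

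The interaction of line and day was fitted to all 12 arrays. Clone numbers 22 and 36 mark the same clone on each day, and their deviations from the day means correlated with r = 0.31 to 0.61. Genes named are the 20 largest rises and falls among called genes whose days did not overlap, up to 8 called members of each list in each direction, called interactions, and RUNX2, SP7, ALPL, COL1A1, SPP1, IBSP, SPARC, DMP1, PHEX, MKI67, CCND1, CDKN1B, HMGCS1, VEGFA and CD99. List members that did not pass are named with their values, and PDE4A was named after its values were seen. The members and lists were chosen with earlier results of these data known. On simulated data for the 14 day comparison with 18677 probe sets, limma recovered 42% of 50 changes of 1.5-fold and all 50 at each of 2-, 4- and 8-fold, and 0.581% of its calls were of unchanged probe sets. The simulated noise was independent between arrays and drawn from limma's own fitted variances, and few probe sets were changed. Changes of 1.5-fold lay at the call threshold itself. The shares therefore check the procedure and are not error rates of the real comparison. Alternatives were other filters, thresholds, scalings, gene summaries, samples in the fit and blocks, and each array left out.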

Additional observations from a re-analysis of the deposited data

Results flagged for a closer look

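For 6 genes the change over 14 days in parental SaOS-2 was flagged as unlike that in both CD99 transfectants. By limma the interaction without blocks was called for 0 genes. PLXDC1 (difference 1.98) and SEMA3C (1.94) were called with replicate and clone numbers as blocks, and with the clone number alone as a block. Without blocks their adjusted p was 0.919 for each. The other 4 genes were called in SaOS-2 and had the opposite sign in both clones, whatever its size. For them the interaction was not called, so a difference between the lines was not shown. IL11 changed by 0.67 in SaOS-2, by -0.67 in clone 22 and by -2.54 in clone 36 (difference 2.28). LIF, a cytokine of the same family, changed by 0.63 in SaOS-2, by -0.88 in clone 22 and by -2.21 in clone 36 (difference 2.18). SAMD9, an interferon-stimulated gene, changed by 0.59 in SaOS-2, by -1.68 in clone 22 and by -0.14 in clone 36 (difference 1.5). It was below the floor on all 4 SaOS-2 arrays of these days, with 6.02 and 6.25 at day 14, against 5.43 and 5.65 at day 0. Its call was lost in the fit of all 12 arrays (adjusted p = 0.247) and without SaOS-2 day 0 replicate 1 (0.48) or SaOS-2 day 14 replicate 2 (0.47). JAM2, a junction protein, changed by -0.65 in SaOS-2, by 0.07 in clone 22 and by 0.37 in clone 36 (difference -0.87). Its call was lost in the fit of all 12 arrays (adjusted p = 0.0588) and without SaOS-2 day 14 replicate 1 (-0.48). The calls of IL11 and LIF were also lost in the fit of all 12 arrays (adjusted p = 0.375 and 0.115), and that of LIF without SaOS-2 day 14 replicate 1 (0.58).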

How the results depend on the processing

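Over 189 named genes and up to 17 alternatives each, of 3177 pairs of gene and alternative 3119 kept the call, 38 lost it, 6 gained one and 14 changed sign. The count of probe sets called was 3419 with no signal filter, 10178 with no fold threshold (2573 genes rose and 2731 fell) and 801 when limma tested against the fold threshold itself (261 genes rose and 206 fell). Leaving out each array in turn gave 2247 to 2468 probe sets, 569 to 620 genes that rose and 561 to 620 that fell. With all 12 arrays in the fit, 945 of the 1162 called genes were called, and with arrays centred on the median 1047. The replicate numbers of SaOS-2 did not pair the arrays (r = -0.03, 0.23 and -0.04 between days), and with the replicate block 1162 of the 1162 genes were called the same way. The interaction was called for 0 to 2 genes with 1 array left out (2 without Sa/CD99 day 14 replicate 22 or without replicate 36), 2 with the replicate block and 4 with the clone number alone as a block, a setting chosen after seeing the data.

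Sign changes were seen in genes that did not pass, and the cause was not tested. As the mean of probe sets RUNX2 was -0.11 and COL1A1 -0.01. With an interquartile range filter SPARC was -0.01. BMP2 was 0.03 with quantile normalization again and 0.05 with centred arrays, and BMP4 0.05 and 0.06. With 1 array left out, COL1A1 ranged over -0.08 to 0.22, BMP2 over -0.11 to 0.09, BMP4 over -0.09 to 0.08 and BMP7 over -0.02 to 0.04. Of 36 lists, 8 of 612 medians changed sign and the largest move was 0.38. With 2 arrays per day, changes near the fold threshold can fall on either side of it. Genes near background are compressed on the log2 scale, so folds of genes below the floor on 1 day are uncertain.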
